A study of Mus musculus with 6 samples.

Results

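The 10 genes described here are Stat6, the transcription factor that carries the interleukin-4 signal to the nucleus, and 9 genes that are textbook responders to it in mouse macrophages and dendritic cells. They were taken as a list of symbols (Stat6, Arg1, Retnla, Chil3, Mrc1, Mgl2, Clec10a, Alox15, Tgm2 and Egr2; Chil3 is the current name of Chi3l3) out of 19938 genes that the array annotation names. All 10 had 1 probe set of their own and all 10 were among the 13956 genes bright enough to be tested. The study compared dendritic cells grown from the marrow of female C57BL/6J mice that had been given 2000000 bone marrow cells from congenic B6.SJL-Ptprca mice, whose leukocytes bear the CD45.1 alloantigen. In the naive-donor group (3 arrays, titled Control) the donor was untreated. In the UV-donor group (3 arrays) the donor's shaved back had received up to 8 kJ/m2 of broadband ultraviolet radiation, 65% of it UVB. Mice were 6 to 10 weeks old when irradiated. Recipient marrow of both groups was cultured for 5 days with IL-4 and GM-CSF, at 10 ng/ml of either, and the non-adherent cells were enriched to over 95% CD11c+ cells. Both groups therefore grew in IL-4, and no culture without it was analysed here, so these arrays hold no measurement of the response to IL-4 itself. The share of donor-derived cells in each culture, and whether the 3 preparations of a group came from separate recipients, are not given in the sources used here. The p-values below thus rest on a spread between preparations that may be technical.

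As background, IL-4 binds a receptor made of Il4ra with either the common gamma chain Il2rg or Il13ra1. The receptor's Janus kinases phosphorylate STAT6, which pairs up, enters the nucleus and binds palindromes of the form TTCNNNNGAA. In myeloid cells this switches on the alternative activation programme, which includes arginase, the secreted proteins Retnla and Chil3, and galactose- and mannose-binding lectins, and it favours dendritic cell growth in GM-CSF cultures.

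The promoter windows of the RefSeq table (assembly GRCm38.p6, each 300 bases around a transcript start) covered 6 of the 10 genes, namely Stat6, Retnla, Chil3, Mrc1, Mgl2 and Egr2, in 10 windows. Arg1, Clec10a, Alox15 and Tgm2 had no entry. The letters TTCNNNNGAA, the spacing favoured by STAT6, and TTCNNNGAA, the spacing shared by other STAT proteins, were searched. Each motif is its own reverse complement, so 1 search covers both strands. The first occurs in 6.95% and the second in 8.30% of the 32851 windows in the table. Retnla held the first and Chil3 the second, and these windows are shown because both genes encode abundant secreted products of the IL-4 programme and, as given below, lay on opposite sides of 0 between the groups. Capitals mark the match, and each sequence runs 5′ to 3′ on the gene's strand.
Retnla, chr16:48842359-48842658, plus strand: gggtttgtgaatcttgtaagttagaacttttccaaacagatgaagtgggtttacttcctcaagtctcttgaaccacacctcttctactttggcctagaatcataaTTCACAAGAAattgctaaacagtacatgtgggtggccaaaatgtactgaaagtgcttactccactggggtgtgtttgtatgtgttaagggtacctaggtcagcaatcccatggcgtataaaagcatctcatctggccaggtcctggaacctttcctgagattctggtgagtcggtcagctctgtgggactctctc
Chil3, chr3:106167515-106167814, minus strand: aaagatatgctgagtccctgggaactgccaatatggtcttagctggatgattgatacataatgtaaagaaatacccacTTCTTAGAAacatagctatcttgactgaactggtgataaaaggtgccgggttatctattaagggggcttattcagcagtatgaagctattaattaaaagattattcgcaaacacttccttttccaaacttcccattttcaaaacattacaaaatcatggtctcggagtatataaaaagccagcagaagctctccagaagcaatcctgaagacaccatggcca
The Retnla match starts 145 bases and the Chil3 match 172 bases before the transcript start. A match is a run of letters and not a measured binding site, and windows without one say only that these letters are not in them.

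Array medians lay from 7.19 to 7.23 on the naive-donor arrays and from 7.16 to 7.18 on the UV-donor arrays (log2 scale), and the interquartile range was 3.61 to 3.68 and 3.71 to 3.75, neither with overlap. On the leading principal component UV-donor replicate 1 stood farthest out, at 14.1 against 4.31 and 3.79 for the other UV-donor arrays and -10.8 to -2.01 for the naive-donor arrays. Among markers of the labelled cell type, the enriched antigen Itgax (CD11c) read 13.77 ± 0.02 in the naive-donor and 13.73 ± 0.02 in the UV-donor group. The class II genes H2-Ab1 (12.57 ± 0.08 and 12.68 ± 0.01) and Cd74 (13.54 ± 0.05 and 13.59 ± 0.03) were likewise bright (log2 signal, SD, n = 3 each). Zbtb46 was dimmer, with means of 8.81 and 8.86. Means of Ccr7 were 12.25 and 12.29, of Fscn1 10.32 and 10.73, and of Cd209a 10.01 and 10.60. Batf3 (10.18 and 10.22), Dpp4 (9.92 and 10.06) and Ciita (9.68 and 10.17) lay in a similar range. Of 11 dendritic cell markers Flt3 alone was under the brightness filter. The macrophage markers Cd68 (means 13.15 and 13.14) and Csf1r (12.58 and 12.62) were bright too. Other macrophage markers were less bright, from Adgre1 (11.25 and 11.76) and Mertk (10.01 and 9.95) downwards. Dimmer still were Fcgr1 (8.43 and 8.66), C1qb (8.30 and 8.94), C1qc (7.96 and 8.42) and C1qa (7.52 and 7.69), and Cd163 was under the filter. Whether these readings set dendritic cells apart from macrophages was not tested.

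The IL-4 and STAT6 response genes gave bright and nearly equal signals in both groups. Each of the 10 probe sets was brighter than at least 94.2% of all probe sets on every array, a position on the array's scale that also depends on the probes, so no order of RNA levels between the genes is read from it. Log2 differences between the groups (UV-donor minus naive-donor) ran from -0.096 for Mrc1 to 0.058 for Alox15, or from 0.935-fold to 1.04-fold. None of the 10 passed the test (limma, two-sided, Benjamini-Hochberg adjusted p from 0.396 to 0.939), where 0.172% of the 13956 tested genes did, all 24 of them higher. That background itself was unsteady, at 1 gene without naive-donor replicate 1, UV-donor replicate 2 or UV-donor replicate 3, and 3 without naive-donor replicate 3. At an unadjusted p under 0.05 the count among the 10 was also 0, against 15.1% of all tested genes (5.49% lower and 9.6% higher). For 9 of the 10 the 95% interval of the difference lay inside 1.2-fold in either direction, with Alox15 the exception. These bounds are on array signal. Chil3, Tgm2, Mgl2, Arg1 and Retnla came within 0.61 to 0.87 (log2) of the highest value of an array. Whether differences are flattened so near the top of the scale was not tested. In 8 of the 10 the UV-donor mean was lower in value, and the median difference was -0.029, against 0.0016 over all tested genes, of which 49.4% were lower in value.

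**Figure D1:**
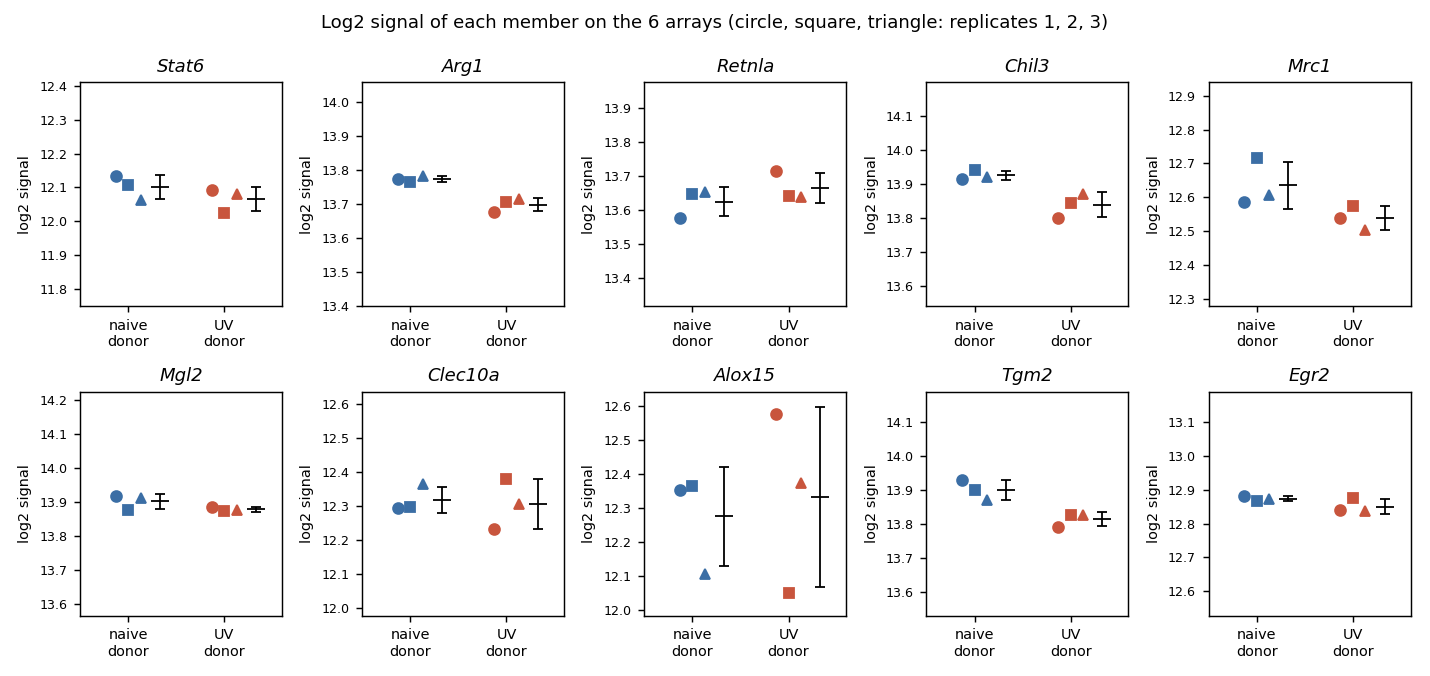
Log2 signal (y axis) of the 10 IL-4 and STAT6 response genes on the 3 naive-donor arrays (blue) and 3 UV-donor arrays (red); symbols mark replicate numbers, black bars the mean and SD, and every panel spans the same log2 range. The groups do not overlap for Arg1, Chil3, Mrc1 and Tgm2, and the UV-donor arrays of Alox15 spread from 12.05 to 12.58.

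Stat6 (probe set 10366956) read 12.13, 12.11 and 12.06 on naive-donor arrays 1 to 3 and 12.09, 12.03 and 12.08 on UV-donor arrays 1 to 3. The groups overlapped, and the difference of -0.035 (SE 0.047, 95% interval -0.14 to 0.072, limma adjusted p = 0.765) was about as large as the SD of 0.035 within the naive-donor group. The array measures transcript, and phosphorylation, which activates the STAT6 protein, was not measured.

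The receptor chains upstream of Stat6 gave overlapping groups too. Il4ra, the chain that binds IL-4, read 11.95, 11.88 and 11.92 in the naive-donor group and 11.78, 11.97 and 11.90 in the UV-donor group, a difference of -0.033 with an interval of -0.17 to 0.10. Il13ra1, which with Il4ra also accepts IL-13, differed by 0.070 (limma adjusted p = 0.592) and the ligand gene Il13 by -0.086 (0.583). Il13 was dim, with means of 7.07 and 6.98, under the median of every array. The ligand gene Il4 and the decoy receptor Il13ra2 were too dim to be tested, and Il2rg and Jak3 had no probe set of their own and were not analysed here. Among 11 tested kinases, adaptors and sister STATs 0 were called and 9 were higher in value. Jak1, which docks on Il4ra, differed by -0.0076 (-0.11 to 0.098). The 3 of smallest p were the phosphoinositide kinase subunits Pik3cd (0.13) and Pik3r1 (0.086) and the Janus kinase Tyk2 (0.18), with limma adjusted p from 0.298 to 0.478.

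Egr2, an early zinc-finger factor that IL-4 induces and that acts on later genes of the programme, was the member with some of the tightest readings (probe set 10363735). Naive-donor arrays gave 12.88, 12.87 and 12.87 and UV-donor arrays 12.84, 12.88 and 12.84. UV-donor replicate 2 lay inside the naive-donor range and the other UV-donor arrays just under it, for a difference of -0.023 (SE 0.043, interval -0.12 to 0.076, limma adjusted p = 0.838).

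Of 14 tested transcription factors that work with STAT6 or downstream of it, 0 were called, 5 were higher and 9 lower in value. Irf4, needed for much of the IL-4 programme, differed by -0.026 (-0.13 to 0.081). Klf4, a partner of STAT6, differed by -0.095, and the lipid-sensing receptor Pparg by -0.050, with overlapping groups in both. The 3 of smallest p were the growth regulator Myc (0.27, limma adjusted p = 0.157), Egr1, a relative of Egr2 (-0.22, 0.319), and the Egr corepressor Nab1 (0.15, 0.429). Myc read 11.11, 11.14 and 10.95 on the naive-donor arrays and 11.32, 11.27 and 11.43 on the UV-donor arrays, without overlap.

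Arg1, arginase 1, splits arginine into ornithine and urea and so draws arginine away from nitric oxide synthase. Its probe set (10368343) read 13.78, 13.77 and 13.78 in the naive-donor group and 13.68, 13.71 and 13.71 in the UV-donor group. All UV-donor arrays lay below all naive-donor arrays, by a mean of 0.076 on the log2 scale, or 0.949-fold. Within the groups the SD was 0.0079 and 0.020, so the difference exceeded the spread of this gene's own replicates. It did not pass the test (SE 0.043, interval -0.17 to 0.023, limma adjusted p = 0.438), which draws each gene's variance towards that of all genes. With array medians centred the Arg1 difference was -0.041 and its groups overlapped.

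Other genes of arginine use gave 0 calls among 9 tested, 4 higher and 5 lower in value. Nos2, inducible nitric oxide synthase and the rival of arginase for arginine, read 13.12, 12.87 and 13.14 in the naive-donor group and 12.61, 12.95 and 12.81 in the UV-donor group. The groups overlapped, with a difference of -0.25, a 95% interval of -0.49 to -0.020 and a limma adjusted p of 0.297. The mitochondrial arginase Arg2 differed by 0.12 (-0.16 to 0.40). Argininosuccinate lyase Asl differed by 0.17 (limma adjusted p = 0.258) and ornithine decarboxylase Odc1, the entry to polyamines, by 0.22 (0.359). The cationic amino acid transporter Slc7a2, which brings arginine into alternatively activated cells, read 13.34, 13.30 and 13.27 against 13.10, 13.19 and 13.15. These groups did not overlap, and the difference of -0.16 (interval -0.27 to -0.047) did not pass (limma adjusted p = 0.199).

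Tgm2, transglutaminase 2, crosslinks proteins and marks alternative activation in mouse and human. Naive-donor arrays read 13.93, 13.90 and 13.87 and UV-donor arrays 13.79, 13.83 and 13.83 (probe set 10489204). The groups did not overlap, with the highest UV-donor value 0.042 below the lowest naive-donor value. The difference was -0.085 (SE 0.045, interval -0.19 to 0.017, limma adjusted p = 0.399).

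Alox15, the 12/15-lipoxygenase that oxidises arachidonic and linoleic acid, was the most variable of the 10 (probe set 10387855). It read 12.35, 12.37 and 12.11 in the naive-donor group and 12.58, 12.05 and 12.37 in the UV-donor group. The UV-donor group held both the highest and the lowest of the 6 readings. The SD was 0.15 and 0.27, and the difference of 0.058 (SE 0.13, interval -0.24 to 0.36, limma adjusted p = 0.873) was smaller than either. Its sign rested on single arrays: without UV-donor replicate 1 it was -0.064 and without naive-donor replicate 3 it was -0.027, while without UV-donor replicate 2 it was 0.20. Among 4 other tested lipoxygenase genes 0 were called. Alox5, which begins leukotriene synthesis, differed by 0.13 (limma adjusted p = 0.313), Alox8 by 0.057 and Alox12e by -0.086. Alox8 was dim, with means of 6.74 and 6.80, under the median of every array.

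Retnla, also called FIZZ1 or RELMα, is a small secreted protein of the resistin family, and its window printed above carries the TTCNNNNGAA letters. Its probe set (10436095) read 13.58, 13.65 and 13.65 in the naive-donor group and 13.72, 13.64 and 13.64 in the UV-donor group. The groups overlapped: UV-donor replicate 1 was the highest array and naive-donor replicate 1 the lowest, with the other 4 arrays within 0.013 of each other. The difference was 0.040 (SE 0.049, interval -0.072 to 0.15, limma adjusted p = 0.736), and 0.015 without UV-donor replicate 1.

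Chil3, or Ym1, is a chitinase-like lectin without enzyme activity that is secreted in quantity by alternatively activated macrophages and is also made by neutrophils. It read 13.91, 13.94 and 13.92 in the naive-donor group and 13.80, 13.85 and 13.87 in the UV-donor group (probe set 10501020). No UV-donor array reached the naive-donor range. The difference of -0.087 (SE 0.045, interval -0.19 to 0.016, limma adjusted p = 0.396) had the smallest p of the 10 genes and was not a call. Its close copy Chil4 (Ym2), named here after its values were seen, differed by -0.18 (limma adjusted p = 0.303). Whether the probes of these copies share sequence was not tested.

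In the list of relatives of Tgm2 and Retnla 0 of 7 tested genes were called. Retnlg, a resistin-like gene of neutrophils, read 7.86, 7.80 and 7.76 in the naive-donor group and 8.00, 8.11 and 8.10 in the UV-donor group. Its difference of 0.26 (limma adjusted p = 0.114) had the opposite sign to Chil3 and was without overlap. Tgm3 differed by -0.27 (0.115) and F13a1, the transglutaminase of coagulation and a monocyte marker, by 0.50 (0.222). Tgm3 was dim, with means of 7.20 and 6.93, near or under the array medians.

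Mrc1, the mannose receptor CD206, takes up mannosylated glycoproteins and is a standard surface mark of IL-4 treated macrophages. Its naive-donor readings were 12.59, 12.71 and 12.61 and its UV-donor readings 12.54, 12.58 and 12.50 (probe set 10469358). The groups were apart by only 0.011 between naive-donor replicate 1 and UV-donor replicate 2. The difference of -0.096 was the most negative of the 10 (SE 0.053, interval -0.22 to 0.024, limma adjusted p = 0.418), and it was -0.057 without naive-donor replicate 2.

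The galactose-binding lectins Mgl2 (CD301b) and Clec10a (CD301a, Mgl1) are products of close gene copies; cross-hybridisation of their probe sets was not tested. Mgl2 (probe set 10377774) read 13.92, 13.88 and 13.91 against 13.89, 13.87 and 13.88. These groups overlapped, and their means were -0.023 apart (interval -0.12 to 0.077; adjusted p = 0.843 by limma). Clec10a (probe set 10377782) read 12.30, 12.30 and 12.36 against 12.23, 12.38 and 12.31. Its UV-donor arrays spanned the whole naive-donor range, and the difference of -0.012 (interval -0.14 to 0.11, limma adjusted p = 0.939) turned positive, to 0.025, without UV-donor replicate 1 and, to 0.011, without naive-donor replicate 3.

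**Figure D2:**
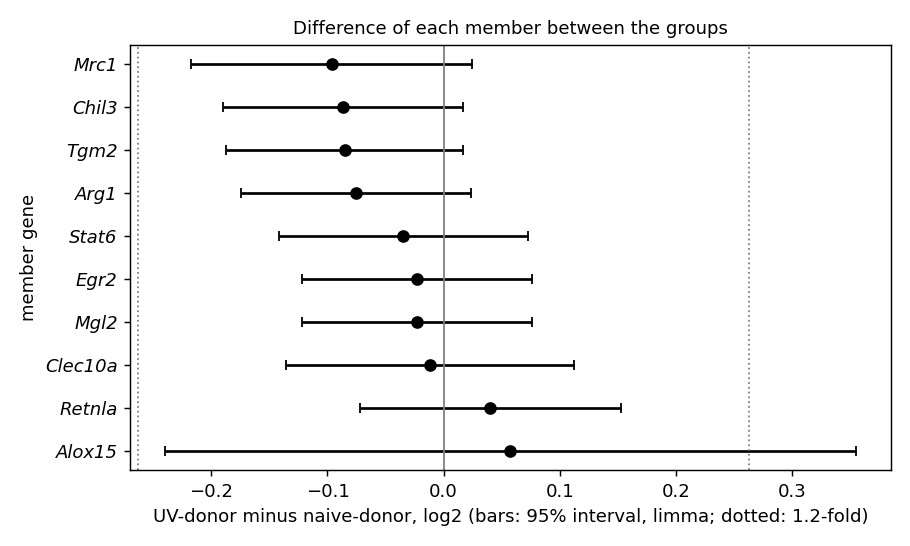
Difference in mean log2 signal, UV-donor minus naive-donor, for each of the 10 genes (x axis), with limma's 95% interval as bars and 1.2-fold as dotted lines. Every interval includes 0, and the interval of Alox15, from -0.24 to 0.36, is the only one to reach past 1.2-fold.

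Arg1, Chil3, Mrc1 and Tgm2 thus formed the 4 of 10 genes (40.0%) whose UV-donor arrays all lay below all naive-donor arrays, where 9.37% of all tested genes did so, and 0 of 10 did the reverse, where 12.4% of all genes did. Genes of an array vary together, and with 3 arrays a group 0.1 is the smallest two-sided p of an exact permutation test, so the count is a description. It depended on the scale. With array medians centred, a step that moved the median over all tested genes to 0.036, 0 of the 10 were lower without overlap, 1 (Retnla) was higher without overlap, and 5 of 10 were lower in value with a median of 0.0056. The shares over all tested genes at that scaling were 4.01% lower and 19.5% higher without overlap. Under cyclic loess the same 4 genes were lower without overlap, where 8.27% of all tested genes were, and under quantile normalization these 4 and Egr2, where 9.2% were. Bright genes as a class leaned the same way: of the 909 genes at least as bright as the dimmest member, a limit chosen after the data were seen, 60.8% were lower in value in the UV-donor group and 12.9% were lower and 7.48% higher without overlap. The part of signal brightness in the 4 differences was not tested.

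A comparison inside each array is untouched by median centring, which shifts all genes of an array alike. Retnla minus Chil3 was -0.34, -0.29 and -0.27 on the naive-donor arrays and -0.082, -0.20 and -0.23 on the UV-donor arrays. Set against Arg1, Chil3, Mrc1 and Tgm2 in turn, Retnla was relatively higher on every UV-donor array than on any naive-donor array, by means of 0.12 to 0.14. After cyclic loess or quantile normalization, which act by intensity, these means ran from 0.11 to 0.15, again without overlap. These pairs were chosen after their values were seen and carry no test. Retnla was higher in value and its partners were known to be lower without overlap, so the choice favoured pair differences of this sign. How often other pairs of genes separate in this way was not tested. The pairs therefore cannot decide whether readings within the list were unequal beyond that choice, or which gene moved.

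**Figure D3:**
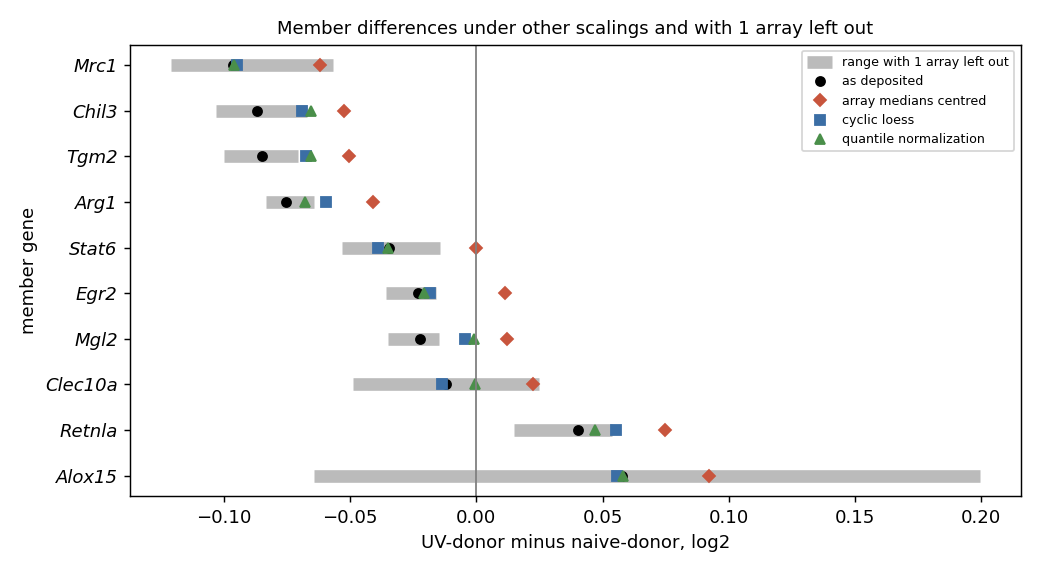
Log2 differences of the 10 genes (x axis) in the values as deposited and under 3 other scalings, with grey bars for the range when 1 array is left out. Centring the array medians moves every gene to the right, past 0 for Mgl2, Clec10a and Egr2, while Arg1, Chil3, Mrc1 and Tgm2 stay below 0 under all 4 scalings.

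Feedback on the pathway comes from SOCS proteins and phosphatases. Of 12 negative regulators tested, which besides these included Pias1, Rnf128, Stub1 and Trim24, 0 were called, with 9 higher and 3 lower in value. Socs1, the main brake on IL-4 receptor signalling and itself induced by STAT6, read 10.86, 10.84 and 10.88 in the naive-donor group and 10.98, 10.94 and 11.04 in the UV-donor group. Those groups did not overlap; the difference was 0.13 (interval 0.018 to 0.23, limma adjusted p = 0.267). The phosphatase Ptpn6 (SHP-1) differed by 0.17 (0.221). The ubiquitin ligase Rnf128 (GRAIL), which limits cytokine responses in T cells, read 10.45, 10.60 and 10.34 against 10.11, 10.19 and 10.01, a difference of -0.36 (interval -0.54 to -0.19) that missed the threshold (limma adjusted p = 0.127).

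Further IL-4 response genes of myeloid cells, 22 of them tested, split into 8 higher and 14 lower in value with a median of -0.029, and 0 were called. The chemokines that mark dendritic cells grown in IL-4 barely differed: Ccl17 read 14.37 ± 0.02 and 14.38 ± 0.02 (difference 0.0072, interval -0.094 to 0.11) and Ccl22 13.39 ± 0.04 and 13.41 ± 0.03 (0.022, -0.086 to 0.13; SD, n = 3 each). Ccl17 came within 0.18 (log2) of the highest value of an array, and flattening of its signal was not tested. Beside Slc7a2, the members of smallest p were the eotaxin Ccl11 (-0.21, limma adjusted p = 0.199) and Il1rn, the interleukin-1 receptor antagonist (0.13, limma adjusted p = 0.238). Ccl11 was dim, with means of 6.85 and 6.64, under the median of every array.

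The opposed programme, driven by interferon-gamma and bacterial products, gave 0 calls among 11 tested genes, 5 higher and 6 lower in value. Ciita, the class II transactivator, differed by 0.49 (interval 0.25 to 0.72, limma adjusted p = 0.126) and is also counted among the dendritic cell markers below. Tnf differed by 0.32 (0.16 to 0.47, limma adjusted p = 0.127). Both were without overlap, and Nos2 differed by -0.25 as given above. Over all 9 pathway lists together, 23 of 92 tested genes, or 25.0%, had an unadjusted p under 0.05 (15 higher and 8 lower), against 15.1% of all tested genes, and 0 were called. Without naive-donor replicate 1 the count was 12 (13% against 10.4% of all tested genes) and without UV-donor replicate 1 it was 14 (15.2% against 12.8%). Groups did not overlap for 26.1% of the 92, against 21.8% of all tested genes. Because the lists were chosen with earlier results of these data known, these shares are a description only.

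**Figure D4:**
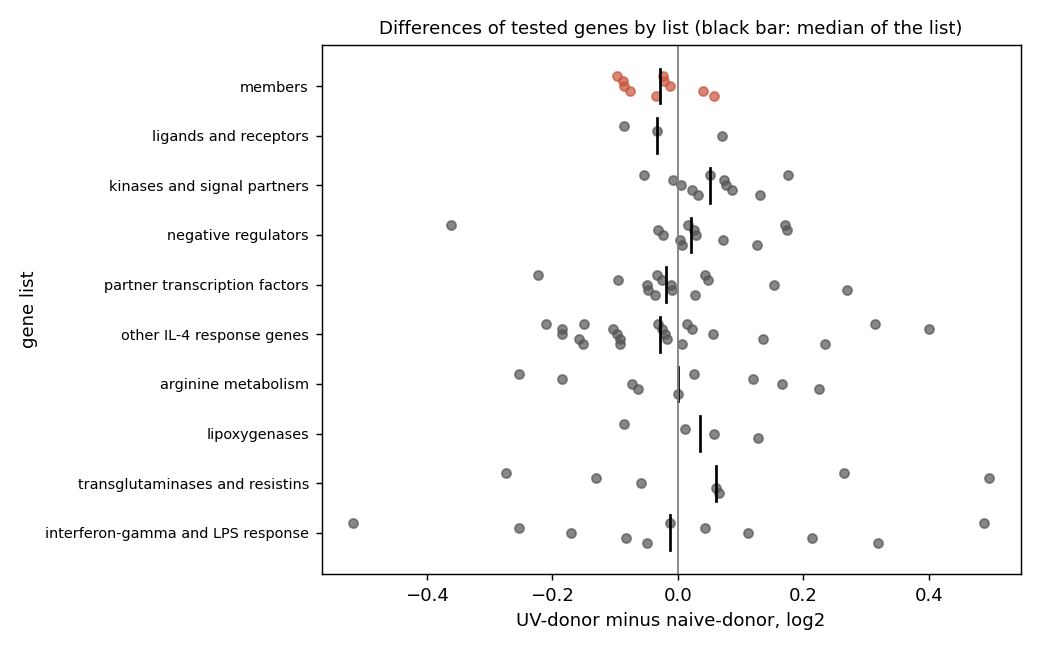
Log2 differences, UV-donor minus naive-donor (x axis), of the tested genes of each list, with the 10 IL-4 and STAT6 response genes in red, 9 further lists in grey and a black bar at each median. The red points run from -0.096 to 0.058, and the widest spread is in the interferon-gamma and LPS list, from -0.52 to 0.49.

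Several of these genes are also made by other myeloid cells, and in bulk RNA fewer cells of a type and less RNA per cell cannot be told apart. The summed linear signal of 12 neutrophil markers was 11957 to 12388 on the naive-donor arrays and 15512 to 16126 on the UV-donor arrays. Of the 12, 2 were called, both higher, where 0.172% of all tested genes were called. A linear sum leans on its brightest gene, here Cxcr2 (means 12.39 and 12.68). Without overlap 8 of the 12 were higher, where 12.4% of all tested genes were. Camp (-0.019), Elane (-0.035), Mpo (0.044) and Lcn2 (0.13) overlapped. For 9 macrophage markers the sum was 19622 to 20038 and 21043 to 21550, with 1 of 8 tested called, higher, and Cd163 too dim to test. Most of that sum is Cd68 (-0.011) and Csf1r (0.039), whose groups overlapped. Of the 8, 4 (Adgre1, C1qa, C1qb and C1qc) were higher without overlap, where 12.4% of all tested genes were. Fcgr1 (0.23) and Mertk (-0.056) overlapped. For 6 eosinophil markers the sum was 2243 to 2448 and 2563 to 3107, with 0 of 3 tested called and Epx, Ccr3 and Il5ra too dim. Most of that sum is Siglecf, whose groups overlapped (10.89, 11.03 and 10.85 against 11.33, 11.02 and 10.99). Prg2, Epx and Ear6 were higher without overlap, where 12.4% of all tested genes were. Il5ra was lower without overlap (-0.11), where 9.37% were, and Ccr3 differed by 0.0031. These genes were dim, with naive-donor means of 6.88 (Prg2), 6.10 (Epx), 6.97 (Ear6), 4.90 (Il5ra) and 5.83 (Ccr3). The dendritic cell markers summed to 41437 to 43596 and 44130 to 45740, with 1 of 10 called, higher. Of the 10, 4 were higher without overlap, where 12.4% of all tested genes were, and Itgax, the brightest, differed by -0.044 with overlap. Across all 10 IL-4 and STAT6 response genes the same sum was 100552 to 101720 and 97741 to 98686, lower in the UV-donor group while these 4 marker sums were higher. The 4 marker calls were unsteady, with 1 marker called without naive-donor replicate 1 or naive-donor replicate 3 and 0 without UV-donor replicate 2 or UV-donor replicate 3. With array medians centred the sums of the 10 genes overlapped (97781 to 101606 and 98293 to 100492), and the 4 marker sums stayed apart. The part of these markers in the differences of Chil3, Mrc1, Arg1 and Alox15 was not tested. The monocyte sums (7519 to 8608 and 7738 to 9045) overlapped, as did those of mast cells and basophils, T and NK cells, and B cells, with no marker of these 4 lists called.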

How the data were processed

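The deposited table holds 1 value for each of 35556 probe sets on 6 arrays. The authors' values are log2 signals, judged by their range, and RMA is named with oligo and limma in the submitters' processing notes, without versions or a genome build. Gene names came from the platform annotation: 21789 probe sets had 1 symbol, 1621 several and 12146 were not listed; 21698 matched a RefSeq table by Entrez identifier. The brightest 1-symbol probe set stood for each of 19938 genes. Genes under the 30th percentile of mean signal were left out, leaving 13956.

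Groups were compared with limma 3.58.1 (R 4.3.3, lmFit and eBayes, two-sided, Benjamini-Hochberg over all tested genes, a call at adjusted p under 0.05). The fit was tested on simulated data in which genes were drawn independently, whereas genes of an array vary together. The 3 arrays per group limit the precision. Scan dates and batches are not given in the sources used here. Same-numbered arrays were not treated as pairs in the main fit. The members and lists were chosen with earlier results of these data known. The text names all 10 members, the 3 genes of smallest p per pathway list and a fixed set (Il4ra, Il2rg, Il13ra1, Jak1, Jak3, Socs1, Irf4, Pparg, Klf4, Ccl17, Ccl22, Nos2, Arg2). Figures were drawn with matplotlib 3.10.9.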

Additional observations from a re-analysis of the deposited data

How the results depend on the processing

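None of the 10 genes was called under any of the 17 alternatives refitted or at an adjusted p under 0.10, and with 1 array left out the count ran from 0 to 0. The pathway genes likewise gave 0 calls under all 17, and 23 at an unadjusted p under 0.05. Stat6, Arg1, Retnla, Chil3, Mrc1 and Tgm2 kept their sign throughout, but Stat6 was at -0.00024 with array medians centred, and -0.015 without UV-donor replicate 2. With array medians centred Mgl2 turned to 0.012, Clec10a to 0.023 and Egr2 to 0.011. Without naive-donor replicate 3 Clec10a was 0.011 and Alox15 -0.027; without UV-donor replicate 1 they were 0.025 and -0.064. Leaving out single arrays, Clec10a ran from -0.049 to 0.025 and Alox15 from -0.064 to 0.20. When limma let the variance follow signal intensity, with a robust prior, 4 of the 10 had an unadjusted p under 0.05, all lower. These were Arg1 (0.0125), Chil3 (0.00941), Tgm2 (0.00946) and Mrc1 (0.0456), with limma adjusted p from 0.188 to 0.322. Of all tested genes 15.1% were at that level in either direction and 5.39% were lower. With array weights Mrc1 alone was at that level (0.0467, lower), where 16.8% of all tested genes were in either direction and 6.79% lower. The 909 genes at least as bright as the dimmest member were also fitted alone, a step added after the data were seen. There 4 of the 10 had an unadjusted p under 0.05, all lower, against 16.8% of those genes in either direction and 11% lower. Over all tested genes the 24 calls became 0 with the replicate block (1952 at an unadjusted p under 0.05, limma) or all probe sets (2089 of the genes' own probe sets), 43 to 45 with centred medians, array weights or the intensity trend, and 1 to 32 with 1 array left out; the marker calls became 0 with the replicate block or all probe sets. The cause was not tested. With the replicate block 0 of the 10 and 0 of the pathway genes were called. Same-numbered arrays had deviations correlated at -0.13, -0.22 and 0.15. With 3 arrays a group these values cannot tell whether same-numbered arrays were prepared together.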
